A study of Mus musculus with 18 samples.

Results

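The AU-rich element binders and the mRNA decay machinery were followed as 50 genes, picked by symbol from the 52636 genes of the deposited count table, and all 50 were found. They are tristetraprolin (TTP, encoded by Zfp36) with its paralogs Zfp36l1 and Zfp36l2, 8 other RNA-binding proteins, 4 Regnase and Roquin genes, 11 subunits of the CCR4-NOT deadenylase, 3 genes of the PAN2-PAN3 and PARN deadenylases, 4 TOB and BTG adaptors, 8 genes of decapping and 5′ decay, 6 exosome genes, 2 genes of a cap-binding repressor and the kinase gene Mapkapk2. The question was whether loss of Zfp36 from keratinocytes was met by changes of the other decay factors.

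AU-rich elements are short runs of A and U in the 3′ untranslated region (3′ UTR) of many inflammatory and growth-related mRNAs. TTP binds them and recruits CCR4-NOT, which shortens the poly(A) tail, after which the mRNA is decapped and degraded from its 5′ end or degraded from its 3′ end by the exosome. TTP also acts on its own mRNA, and the kinase MK2 (Mapkapk2) phosphorylates and restrains it.

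The mice carried floxed Zfp36 alleles in both genotypes. Zfp36 ΔK14 mice had in addition a Cre recombinase driven by the keratin 14 promoter, which is active in basal keratinocytes and other stratified epithelia, and Zfp36 fl/fl littermates were the controls. Epidermal cells, sorted as EpCAM-positive and CD45-, CD140a- and CD31-negative, came from mock-treated skin, from adjacent skin without tumors after DMBA and TPA treatment (treated skin, whose cells the labels call treated tumoral keratinocytes) and from tumors, here papillomas. In this protocol the carcinogen DMBA initiates tumors, and repeated application of the phorbol ester TPA drives their outgrowth. The mice were 8 weeks old at the start of that protocol, and no source used here says which animals gave which library, so p-values measure the spread between these libraries.

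The table held 3 columns per genotype and stage, 18 in all. The columns of replicates 2 and 3 of ΔK14 mock skin were identical in all 52636 genes and were counted as 1 library, which leaves 17 libraries and n = 2 in that group. Libraries held 2808550 to 9617985 counts. The shallowest, replicate 1 of the fl/fl tumors, also had the fewest genes with a count (19219), and in either genotype replicate 1 of mock skin differed from the remaining mock libraries, so results that rest on these are given with and without them. Keratinocyte markers were present in every library, with a summed level of 3581 to 32234 CPM (the usual depth-scaled count, relative to the library total scaled by TMM factors). In mock skin, replicate 1 had 3643 CPM in fl/fl and 3581 CPM in ΔK14, beside 20965 to 23149 CPM in the other mock libraries. Melanocyte markers in these 2 libraries summed to 319 and 279 CPM, beside 41.1 to 93.3 CPM. Proliferation markers summed to 1671 and 1686 CPM, beside 400 to 819 CPM. In bulk RNA, fewer cells of a type and less RNA per cell cannot be told apart.

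The mRNAs of TTP itself and of its paralogs hold the nonamer TTATTTATT, the preferred TTP site written as DNA, in their own 3′ UTR. The 27 bases around it are shown for the 3 family members, because the question is whether these close relatives respond to each other. They are also shown for Rc3h1 and Xrn1, which were among the members called in tumors against treated skin. Xrn1 was called there in fl/fl alone. Elavl1 and Cnot6l, called there in fl/fl alone and in ΔK14 alone, also hold the nonamer but are not shown. The nonamer is in capitals, and sequences are from the GENCODE transcripts of mm10, on the strand of the gene.
Zfp36 (chr7:28376952-28376978, minus strand): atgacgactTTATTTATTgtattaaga
Zfp36l1 (chr12:80108168-80108194, minus strand): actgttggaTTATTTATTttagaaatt
Zfp36l2 (chr17:84184915-84184941, minus strand): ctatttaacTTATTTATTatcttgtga
Rc3h1 (chr1:160970044-160970070, plus strand): ctttactcaTTATTTATTgagatgagg
Xrn1 (chr9:96055254-96055280, plus strand): ctagaaaagTTATTTATTtgattaagc

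The nonamer was found, on the strand of the mRNA, in 9 of the 50 genes (18%) and in 7.58% of the 21062 genes of the table with an annotated 3′ UTR. The other 4 holders were Elavl1, with 8 overlapping or nearby copies, Rc3h2, Cnot6l and Edc3. The shorter core TATTTAT, which lies inside the nonamer, was in 24 members (48%) against 27.4% of genes, and ATTTA, which lies inside both, in 43 (86%) against 65.7%. The members' 3′ UTRs were longer, with a median of 2093.5 bases against 1085 for all genes, and longer sequences hold more matches of any short motif. A match describes these letters and not binding.

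At each stage, Zfp36 levels of the ΔK14 libraries all lay below those of the fl/fl libraries. In fl/fl mock skin its level was 152, 716 and 622 CPM, and in ΔK14 mock skin 17.3 and 38.6 CPM. In treated skin the fl/fl libraries had 368, 505 and 256 CPM and the ΔK14 libraries 26.7, 29.8 and 15.2 CPM. In tumors the values were 231, 177 and 242 CPM against 18.6, 12.9 and 10.1 CPM. The lowest fl/fl library, replicate 1 of mock skin, still stood well above every ΔK14 library.

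The log2 fold change of Zfp36 (ΔK14 over fl/fl) was −4.13 ± 0.86 (SE) in mock skin. There its unadjusted p was 0.0040 and its adjusted p 0.99998 by edgeR's quasi-likelihood test, so it was not called. It was −3.99 ± 0.35 in treated skin (edgeR adjusted p = 0.039) and −4.10 ± 0.30 in tumors (edgeR adjusted p = 0.0088). A gene was called when its p, adjusted over all genes tested in that comparison, was under 0.05. The call was lost in treated skin without fl/fl replicate 1 or 2 or ΔK14 replicate 2. In tumors it was lost without fl/fl replicate 3 or ΔK14 replicate 2 or 3, and with the replicate number as a block (edgeR adjusted p = 0.076). The log2 fold change stayed between −4.20 and −3.72 and between −4.35 and −3.86 over 13 alternatives each. The counts cover the whole gene, so reads from inside and outside the deleted segment cannot be told apart.

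Between stages Zfp36 lay near the threshold. Its log2 fold change in tumors over treated skin was −0.81 ± 0.29 in fl/fl and −0.90 ± 0.29 in ΔK14 (edgeR adjusted p = 0.058 and 0.068), so it was not called in either. Of 13 alternatives, 5 called it in each genotype, with log2 fold changes of −1.02 to −0.56 in fl/fl and −1.14 to −0.67 in ΔK14 over all 13. In fl/fl these were edgeR's exact test (adjusted p = 0.031), DESeq2 (0.033), no filter on low counts, and the fits without replicate 3 of treated skin or replicate 1 of the tumors. In ΔK14 they were the exact test (edgeR adjusted p = 0.047), no filter, the replicate block, and the fits without replicate 3 of treated skin or replicate 1 of the tumors.

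**Figure D1:**
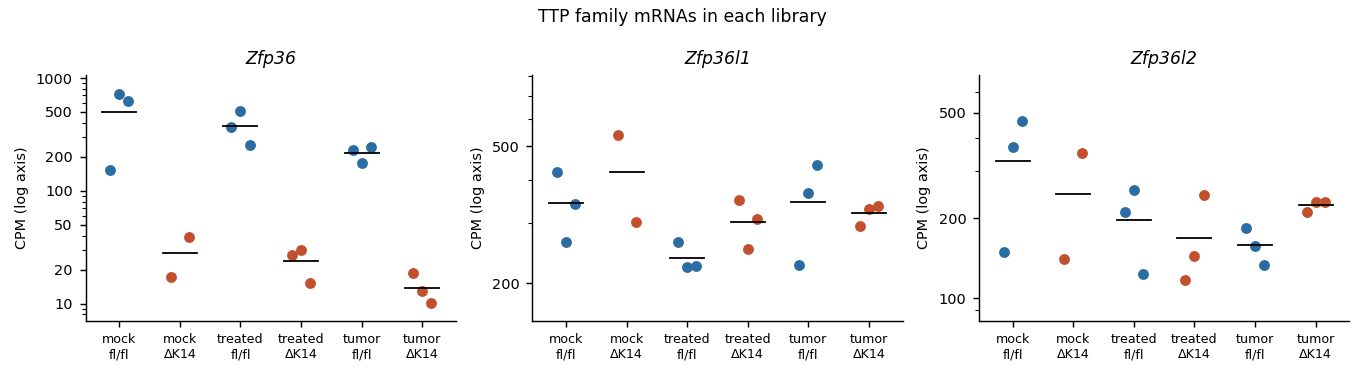
TTP family mRNAs in CPM on a log axis in each of the 17 libraries, by stage and genotype (blue fl/fl, red ΔK14, black lines the group means). Zfp36 separates the genotypes at every stage, with no ΔK14 library above 38.6 CPM and no fl/fl library below 152 CPM, while the paralogs overlap between genotypes except for Zfp36l2 in tumors.

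The paralogs Zfp36l1 and Zfp36l2 encode zinc finger proteins that bind the same kind of element. Zfp36l1 had 264, 222 and 224 CPM in treated fl/fl skin and 348, 251 and 307 CPM in treated ΔK14 skin, where the groups overlapped. In tumors it had 226, 366 and 440 CPM in fl/fl and 293, 329 and 335 CPM in ΔK14. Its genotype log2 fold changes were 0.29 in mock skin, 0.33 in treated skin and −0.25 in tumors, with 95% intervals of −0.68 to 1.26, −0.08 to 0.74 and −0.86 to 0.35. No test found a change, and in treated skin and tumors the intervals exclude a 2-fold change in either direction.

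Zfp36l2 was the paralog whose tumor libraries did not overlap. It had 184, 157 and 133 CPM in fl/fl tumors and 211, 231 and 230 CPM in ΔK14 tumors, so the log2 fold change came to 0.37 (95% interval −0.05 to 0.80) with an edgeR adjusted p of 0.41. In treated skin the difference had the other sign, −0.24 (−0.999 to 0.517), as in mock skin, −0.39 (−1.93 to 1.16). These intervals are per gene and not adjusted for the number of genes.

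Per length, Zfp36 was a large share of the family's mRNA in controls. The length is the union of all annotated exons, which for Zfp36 is 3470 bases and covers its whole span. It is 2990 bases for Zfp36l1 and 3530 for Zfp36l2. Shares between genes therefore depend on the annotated transcripts as well as on the counts. Of the summed FPKM of the 3 genes (CPM per kilobase of exon), Zfp36 gave 19.3, 51.6 and 42.3% in fl/fl mock skin, 40.1 to 49.9% in treated skin and 23.4 to 34.3% in tumors. In ΔK14 libraries it gave 1.61 to 6.44%. The summed family level was 184 to 292 FPKM in treated fl/fl skin and 133 to 176 FPKM in treated ΔK14 skin. In tumors it was 194 to 255 FPKM in fl/fl and 163 to 180 FPKM in ΔK14. In mock skin it was 226 to 424 FPKM in fl/fl and 212 to 225 FPKM in ΔK14. The groups did not overlap at any stage. The sum includes Zfp36, the deleted gene, so a lower sum in ΔK14 is built into the design and does not describe the paralogs.

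All 50 members passed the filter on low counts in every comparison, in part because they are common mRNAs: 49 of them had at least 10 counts in every library, and the exception, Dcp1b, fell to 8 counts in 1 library. The highest means over the 6 groups were those of Hnrnpab (173 FPKM), Zfp36l1 (109 FPKM) and Btg2 (79.0 FPKM), and the lowest those of Tia1 (3.12 FPKM) and Dcp1b (1.27 FPKM). The order depends on the union of annotated exons, which was 15750 bases for Tia1 and 2782 for Hnrnpab. Within roles, CCR4-NOT subunits ran from 28.2 FPKM (the deadenylase Cnot6) to 6.49 FPKM (Cnot10). Decapping and 5′ decay genes ran from 52.4 FPKM for the helicase Ddx6 to 1.27 FPKM for Dcp1b. Exosome genes ran from 17.3 FPKM for the nuclease Exosc10 to 4.29 FPKM for Exosc4. Regnase and Roquin genes ran from 20.0 FPKM for Zc3h12a to 6.61 FPKM for Rc3h2. Of the small groups, Pan3 and Pan2 had 9.46 and 4.35 FPKM, Btg2 and Tob2 79.0 and 13.7 FPKM, Eif4e2 and Gigyf2 10.4 and 6.04 FPKM, and Mapkapk2 35.4 FPKM.

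Zfp36 was the only member called between genotypes by the quasi-likelihood test, at any stage. In mock skin 0 of 50 members were called, with 0% of the 15920 genes tested, and 1 member, Zfp36, had an unadjusted p under 0.05 (1.59% of genes did). DESeq2 called Zfp36 there (adjusted p = 0.00042), with 0.0188% of genes. So did edgeR with the replicate number as a block (log2 fold change −3.72, adjusted p = 7.9e-33, with 0.829% of genes) and with a term for replicate 1 (−3.71, edgeR adjusted p = 0.0073, with 0.0377%). The exact test did not (edgeR adjusted p = 0.083). In treated skin Zfp36 alone was called, and it was also the sole gene called of 16232 (0.00616%). The unadjusted p was under 0.05 for Zfp36 alone of the members, and for 5.55% of genes. In tumors Zfp36 alone of the members was called, with 0.0284% of 14067 genes. Here 2 members, Zfp36 and Zc3h12c, had an unadjusted p under 0.05, against 14.0% of genes. The main test called few genes: edgeR's exact test called 2 in mock skin, 46 in treated skin and 396 in tumors. The paper, also using edgeR, reports more differing genes at each stage than the main test called.

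The log2 fold changes of the other 49 members ran from −0.39 to 0.68 in mock skin, −0.39 to 0.70 in treated skin and −0.53 to 2.03 in tumors, the upper end in tumors being Zc3h12c, with medians of 0.04 at all 3 stages. The median size of the difference over all 50 was 0.15, 0.12 and 0.13, beside 0.25, 0.20 and 0.32 over all genes tested. Libraries of the genotypes did not overlap for 4 members in mock skin (12.6% of genes tested), 5 in treated skin (11.7%) and 8 in tumors (17.9%), shares of the 50 that are at or below those of all genes.

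How large a difference could have been missed is given by the 95% intervals of the 49. They lay within a 2-fold change in either direction for 46 members in treated skin and 45 in tumors, beside 63.0% and 44.1% of all genes tested. In mock skin, with 2 ΔK14 libraries, this held for 25 members and 19.7% of genes, so a 2-fold change was not excluded for 24. The intervals that reached a 2-fold change in treated skin were those of Zc3h12c, Zc3h12a and Dcp1b. In tumors they were those of Zc3h12c, Zc3h12a, Dcp1b and the exosome gene Exosc2. Members with low counts, such as Dcp1b and Exosc2, had wide intervals in tumors (−1.70 to 0.64 and −1.27 to 1.10).

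**Figure D2:**
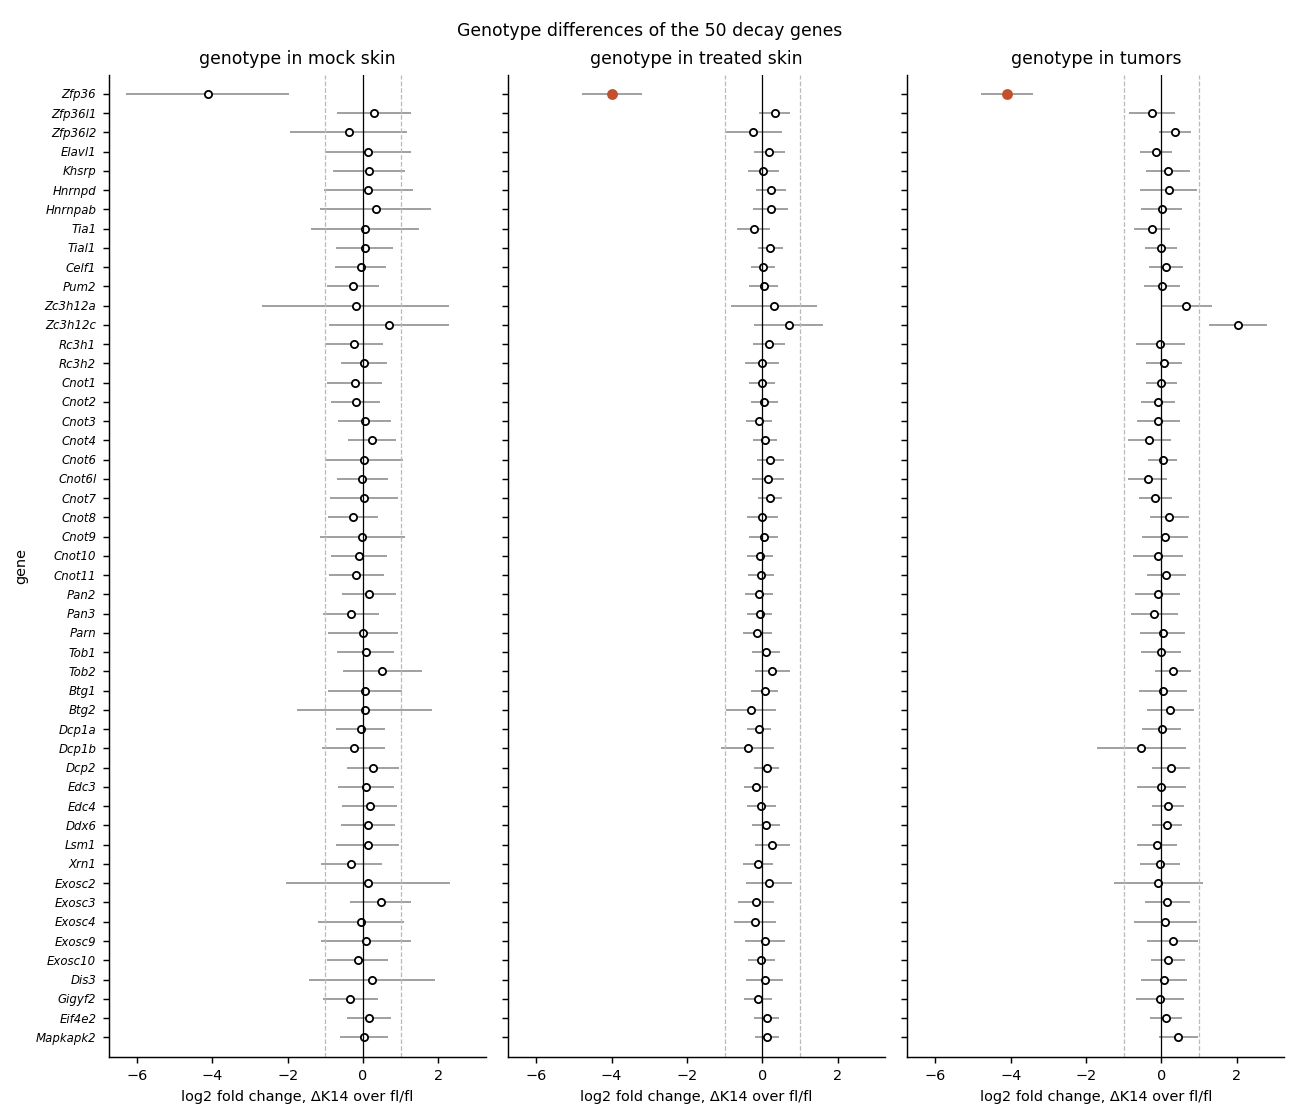
Log2 fold change (ΔK14 over fl/fl) of the 50 decay genes in mock skin, treated skin and tumors, with 95% intervals from edgeR (filled red, called at an adjusted p under 0.05; dashed lines, a 2-fold change). Zfp36 lies near −4 in each panel and the other genes lie near 0, except Zc3h12c at 2.03 in tumors, and intervals are widest in mock skin.

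Zc3h12c stood apart from the rest of the machinery in tumors. It encodes Regnase-3, a member of the Regnase family of RNA-binding proteins with an RNase domain. Its level was 126, 69.3 and 50.5 CPM in fl/fl tumors and 280, 397 and 419 CPM in ΔK14 tumors, so the lowest ΔK14 tumor was above the highest fl/fl tumor. The log2 fold change was 2.03 ± 0.34 (95% interval 1.26 to 2.81), and the adjusted p was 0.14 by edgeR's quasi-likelihood test. It was therefore not called by the main test.

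Other tests of the same counts did call Zc3h12c in tumors. These were edgeR's exact test (adjusted p = 4.2e-05, with 2.82% of genes called), DESeq2 (adjusted p = 1.0e-05, 2.94% of genes) and the quasi-likelihood test with no filter on low counts (adjusted p = 1.9e-13, 4.94% of 32605 genes). Without replicate 1 of the fl/fl tumors the log2 fold change was 2.49 and the edgeR adjusted p 0.00015, with 23.1% of 15463 genes called. Over 13 alternatives the log2 fold change stayed between 1.79 and 2.49, and the adjusted p lay between 1.9e-13 and 0.63, with 4 calls.

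In skin the same gene overlapped between genotypes. Zc3h12c had 34.6, 34.4 and 45.2 CPM in treated fl/fl skin and 29.4, 54.7 and 106 CPM in treated ΔK14 skin. In mock skin it had 26.6, 38.5 and 64.9 CPM in fl/fl and 29.8 and 107 CPM in ΔK14. Its genotype log2 fold changes there were 0.70 and 0.68, neither called. The test of the difference itself, the genotype effect in tumors less that in treated skin, gave 1.40 ± 0.56 (edgeR adjusted p = 0.31), and against mock skin 1.45 ± 0.76 (edgeR adjusted p = 0.67). No member was called in either test of a difference between stages, where 0.0118% of 17017 and 0% of 17388 genes were called by the quasi-likelihood test. With no filter on low counts, Zc3h12c was called in the test against treated skin (log2 difference 1.47, edgeR adjusted p = 0.0022, with 2.76% of 36391 genes).

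Zc3h12a, which encodes Regnase-1 and is known as a brake on inflammatory mRNAs, had 74.8, 54.4 and 61.6 CPM in fl/fl tumors and 67.3, 116 and 149 CPM in ΔK14 tumors. Its groups overlapped, and the log2 fold change was 0.67 (95% interval 0.00 to 1.33, edgeR adjusted p = 0.36). It was called only with no filter on low counts (log2 fold change 0.85, edgeR adjusted p = 0.035). Mapkapk2 had 130, 160 and 112 CPM against 156, 207 and 242 CPM, with a log2 difference of 0.45 (−0.07 to 0.96, edgeR adjusted p = 0.41). Of the Roquin genes, which encode stem-loop binding ubiquitin ligases that promote decay, Rc3h1 had 152 to 325 CPM in fl/fl tumors and 213 to 282 CPM in ΔK14 tumors.

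Regnases and Mapkapk2 are also expressed in leukocytes, so markers of those cells were read in the same tumors. The 9 leukocyte markers summed to 22.4 to 99.8 CPM in fl/fl tumors and 94.9 to 111 CPM in ΔK14 tumors, and the 5 Langerhans cell markers to 17.7 to 36.6 CPM and 72.8 to 113 CPM. The lists share Cd74, which alone averaged 18.1 CPM in fl/fl and 69.5 CPM in ΔK14 tumors. Without it the other 8 leukocyte markers averaged 33.8 CPM in fl/fl tumors (11.8 to 71.2 CPM) and 33.3 CPM in ΔK14 tumors (24.9 to 47.3 CPM). The fl/fl range reached both below and above that of ΔK14, so the near-equal means do not show equal levels. The other 4 Langerhans cell markers ran from 7.02 to 12.8 CPM in fl/fl and from 17.9 to 29.7 CPM in ΔK14, with no overlap. Cd207, the defining Langerhans cell marker, was at 0 in every tumor library. The T cell marker Cd3e was at 0 in all fl/fl tumors and averaged 0.061 CPM in ΔK14 tumors, and the pan-leukocyte marker Ptprc averaged 0.61 CPM in fl/fl and 0.82 CPM in ΔK14 tumors.

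Markers of epithelial compartments differed between the same tumors. The 5 sebaceous gland markers summed to 311, 3790 and 7026 CPM in fl/fl tumors and to 312, 204 and 310 CPM in ΔK14 tumors. The 7 hair follicle markers summed to 545 to 819 CPM in fl/fl and 368 to 469 CPM in ΔK14 tumors, with no overlap. The keratinocyte markers summed to 32234, 8855 and 10406 CPM in fl/fl and to 25558 to 26355 CPM in ΔK14 tumors. Replicate 1 of the fl/fl tumors, whose sebaceous sum lay within the ΔK14 range, had the highest Zc3h12c of the fl/fl tumors (126 CPM). The part of any of these markers in the Zc3h12c difference was not tested.

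The remaining genotype comparisons named by smallest p were small. In mock skin they were Exosc3 (log2 fold change 0.47), the adaptor Tob2 (0.51), the repressor Gigyf2 (−0.34) and the deadenylase subunit Pan3 (−0.33). In treated skin they were the deadenylase Cnot7 (0.22) and the RNA-binding protein Tial1 (0.21). All 6 missed the threshold by a wide margin, with edgeR adjusted p-values between 0.914 and 0.99998. The 8 members other than Zfp36 that hold the nonamer had median log2 fold changes of 0.00 in mock skin, 0.07 in treated skin and −0.03 in tumors, and the 41 without it 0.04, 0.04 and 0.05. In tumors those 8 ranged from −0.37 (Cnot6l) to 0.37 (Zfp36l2).

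The wider pathway was checked with 84 further genes of mRNA decay and its control, namely other RNA-binding regulators, miRNA effectors, poly(A)-binding proteins, further decapping, exosome and nonsense-mediated decay genes, and the p38 kinases and phosphatases that act on TTP. The filter was passed by 79 of them in mock skin, 80 in treated skin and 77 in tumors. None was called between genotypes by edgeR's quasi-likelihood test, beside 0%, 0.00616% and 0.0284% of all genes tested. With so few calls among all genes, the lack of calls does not set this list apart. An unadjusted edgeR p under 0.05 was reached by 0, 2 and 2 genes of the list, beside 1.59%, 5.55% and 14.0% of all genes.

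Between skin and tumors more members were called than between genotypes, as were more of all genes, and the members' shares were near or below those of all genes. Treatment alone gave no call: 0 of 50 members were called in treated against mock skin in fl/fl or in ΔK14, where 0% of 16601 and 0% of 15891 genes were called by edgeR, and no member had an unadjusted p under 0.05 in either. The exact test and DESeq2 called no member either. The fl/fl result rests on replicate 1 of mock skin. Without it 9 members were called, 5 higher and 4 lower, beside 23.8% of genes. The higher ones were the nucleases and exosome genes Exosc2, Exosc9 and Dis3 with Tia1 and Hnrnpab (log2 fold changes 0.58 to 1.04), and the lower ones were Zfp36l2 (−1.06), Btg1 (−0.77), Pum2 (−0.47) and Xrn1 (−0.45). These 9 were named after their values were seen.

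In tumors against treated skin of fl/fl mice, 13 of 50 members (26%) were called, beside 25.0% of 15362 genes, so the share was that of all genes. There were 6 higher members (12.5% of genes were higher) and 7 lower (12.6%), and 3 differed more than 2-fold (18.0% of genes). In ΔK14 mice 10 members were called (20%), beside 36.8% of 15289 genes. These were 6 higher (17.6% of genes), 4 lower (19.2%) and 3 over 2-fold (26.0%). The 50 members' median log2 fold change was −0.05 in fl/fl and 0.04 in ΔK14, beside −0.02 and −0.03 over all genes.

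Both genotypes called 7 of the members, 53.8% of the fl/fl calls and 70.0% of the ΔK14 calls, all 7 in the same direction. These comparisons share no library. Over the 50 genes the log2 fold changes had a Pearson r of 0.89 (0.90 without Zc3h12c and Btg2), a description across genes, which are not independent replicates. Of all genes tested, 25.0% were called in fl/fl and 36.8% in ΔK14. The shared calls and the correlation were not computed over all genes, so neither is shown to be particular to the members.

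The adaptor Btg2, which bridges CCR4-NOT to its targets and restrains proliferation, was the member that fell most. It had 235, 336 and 268 CPM in treated fl/fl skin and 49.7, 72.7 and 81.3 CPM in fl/fl tumors, with a log2 difference of −2.06 ± 0.24 (edgeR adjusted p = 0.0024). In ΔK14 it went from 165, 184 and 342 CPM to 98.8, 101 and 65.4 CPM, −1.46 ± 0.30 (edgeR adjusted p = 0.0067). The groups did not overlap in either genotype. Its relatives moved the other way: Btg1 rose by 0.76 and 0.78 on the log2 scale, and Tob1 was called in ΔK14 at 0.59.

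The kinase gene Mapkapk2 rose in tumors of both genotypes. It had 80.6, 74.1 and 74.1 CPM in treated fl/fl skin and 130, 160 and 112 CPM in fl/fl tumors, with a log2 difference of 0.78 ± 0.18 (edgeR adjusted p = 0.020). In ΔK14 it had 84.0, 88.5 and 82.0 CPM in treated skin and 156, 207 and 242 CPM in tumors, 1.15 ± 0.19 (edgeR adjusted p = 0.0029). Treated skin of both genotypes lay within 74.1 to 88.5 CPM, below every tumor library.

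Zc3h12c rose in ΔK14 tumors against treated skin by 2.44 ± 0.41 on the log2 scale (edgeR adjusted p = 0.0028). In fl/fl its log2 fold change was 1.06 and it was not called by that test. It was called in fl/fl by the exact test (edgeR adjusted p = 0.016, with 32.8% of genes), by DESeq2 (adjusted p = 0.022, 30.8%) and with no filter on low counts (edgeR adjusted p = 0.0031, 16.2%). It was also called without replicate 1 of the fl/fl tumors (log2 fold change 0.64, edgeR adjusted p = 0.037) and without replicate 3 (1.32, edgeR adjusted p = 0.041). Rc3h1, encoding Roquin-1, rose in both, from 105 to 133 CPM in treated fl/fl skin to 152 to 325 CPM in fl/fl tumors (0.95) and from 111 to 164 CPM to 213 to 282 CPM in ΔK14 (0.79). Eif4e2, a cap-binding protein that TTP recruits to repress translation, rose by 0.78 and 0.84.

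**Figure D3:**
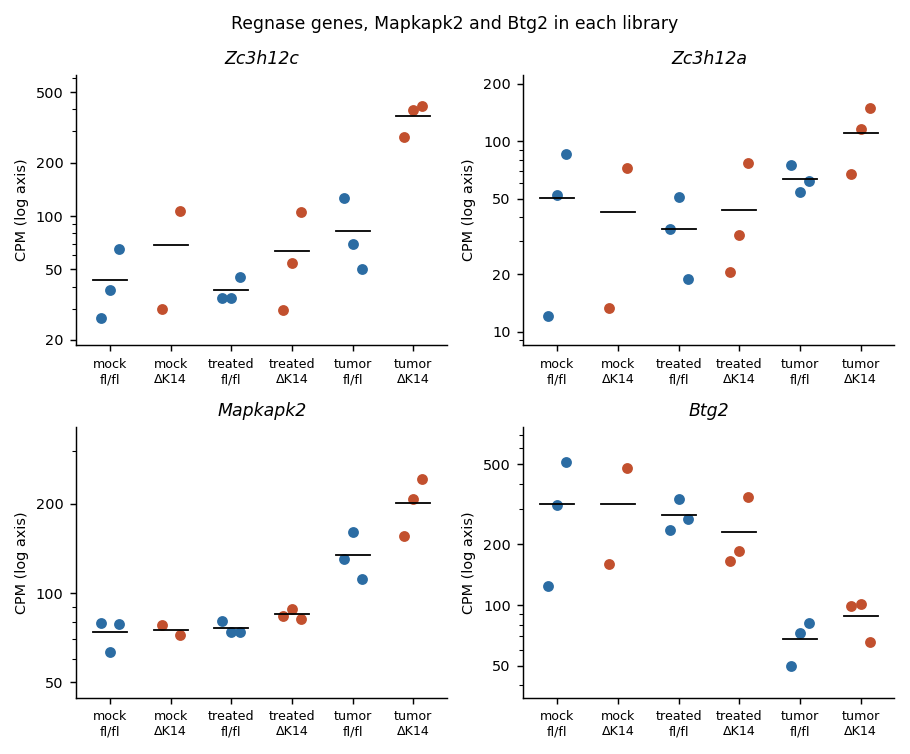
Zc3h12c, Zc3h12a, Mapkapk2 and Btg2 in CPM on log axes in each of the 17 libraries (blue fl/fl, red ΔK14, black lines the group means). Zc3h12c is highest in the 3 ΔK14 tumors (280 to 419 CPM), Mapkapk2 is higher in tumors of both genotypes and Btg2 lower.

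Among RNA-binding proteins, Tia1, a translational silencer that binds U-rich and AU-rich sequence, fell by 0.97 in fl/fl and by 0.95 in ΔK14 on the log2 scale. The stabilizing protein HuR (Elavl1) was called in fl/fl alone, at 0.59 (edgeR adjusted p = 0.048). Of the deadenylases, Pan2 fell by 0.84 and by 0.81, and Cnot6l was called in ΔK14 at −0.76. In decapping and 5′ decay, the fl/fl comparison called Dcp1b (−1.29), the exonuclease Xrn1 (−0.74) and the scaffold Edc4 (−0.65) as lower and Lsm1 (0.96) as higher. The exosome gene Exosc4 was lower in fl/fl tumors (−1.07).

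Some of these rest on few reads or on reads that another gene could share. Dcp1b had 8, 27 and 17 counts in fl/fl tumors and Exosc4 15, 39 and 11. Dcp1b, Exosc4 and Elavl1 overlap a coding gene on the other strand (Cacna1c, Oplah and Ccl25), and whether counting used strand is not given in the sources used here. Whether the changes called in 1 genotype differ between genotypes was asked by the interaction test, which called no member.

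**Figure D4:**
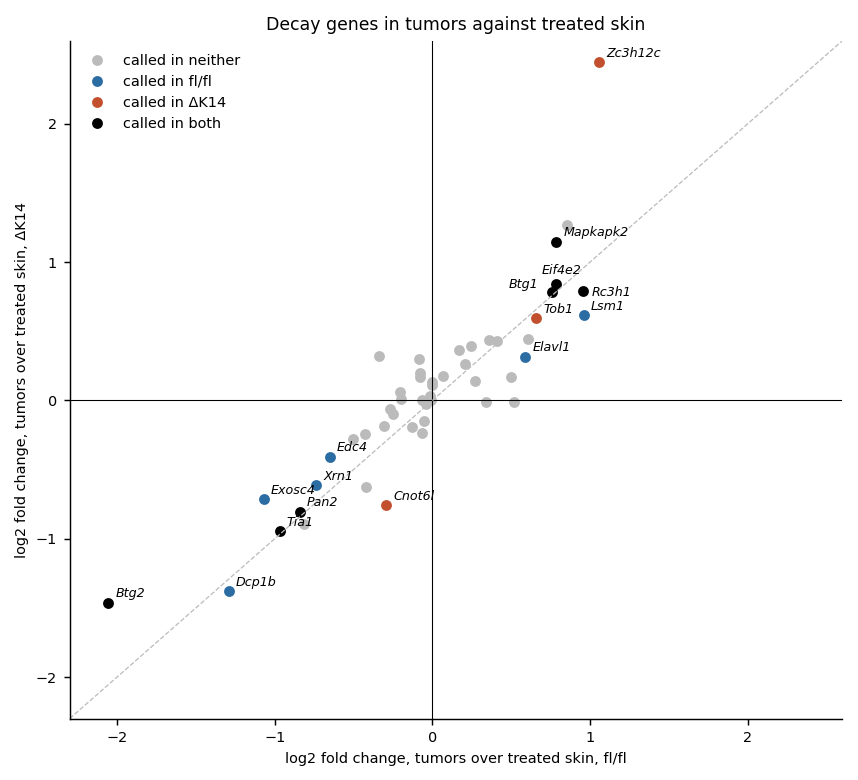
Log2 fold change of the 50 decay genes in tumors over treated skin, fl/fl on the x axis and ΔK14 on the y axis, colored by the genotype in which edgeR called them (dashed line, equal change). Most genes lie along the line, with Btg2 lowest and Zc3h12c, at 1.06 in fl/fl and 2.44 in ΔK14, above it.

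In these stage comparisons markers of other cell types and compartments also moved. The 7 hair follicle markers summed to 1261 to 1583 CPM in treated fl/fl skin and 545 to 819 CPM in fl/fl tumors, and to 819 to 1138 CPM and 368 to 469 CPM in ΔK14. The 6 fibroblast markers summed to 377 to 624 CPM and 82.9 to 197 CPM in fl/fl, and to 432 to 955 CPM and 30.4 to 386 CPM in ΔK14. The sebaceous gland markers summed to 412 to 725 CPM in treated skin and 311 to 7026 CPM in tumors of fl/fl mice, and to 462 to 594 CPM and 204 to 312 CPM in ΔK14. The melanocyte markers summed to 52.7 to 130 CPM and 8.85 to 33.1 CPM in fl/fl, and to 51.6 to 366 CPM and at most 38.2 CPM in ΔK14. The keratinocyte markers summed to 5584 to 14066 CPM and 8855 to 32234 CPM in fl/fl, and to 4804 to 21256 CPM and 25558 to 26355 CPM in ΔK14. Their part in the changes of Btg2, Mapkapk2 and the others was not tested.

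These counts moved with single libraries, as did those of all genes. Without replicate 1 of the fl/fl tumors the fl/fl count rose from 13 to 22 members, beside 38.2% of genes. It fell to 1 without replicate 1 (7.30% of genes) or replicate 2 (9.15%) of fl/fl treated skin and to 2 without replicate 3 (10.6%), Btg2 being called in each. It was 6 without replicate 2 (20.3%) and 5 without replicate 3 (11.1%) of the fl/fl tumors. The ΔK14 count fell from 10 to 6 without replicate 2 (26.8% of genes) and to 5 without replicate 3 (19.9%) of the ΔK14 tumors. Without the low-count filter 21.5% of genes were called in ΔK14, and by the exact test 39.4%. Zc3h12c, Mapkapk2 and Btg2 were called in ΔK14 under all 13 alternatives.

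Against mock skin the picture was thinner. In fl/fl no member was called in tumors against mock skin, beside 4.11% of 15394 genes, with 8 members (16% of the 50) and 26.2% of genes at an unadjusted edgeR p under 0.05. The exact test called 3 members (13.5% of genes) and DESeq2 5 (16.1%). Without replicate 1 of mock skin 9 were called, beside 23.0% of genes: Btg2 (−2.61), Zfp36 (−1.63), Zfp36l2 (−1.42), Dcp1b (−1.40) and Xrn1 (−1.19) lower, and Hnrnpab (1.20), Elavl1 (1.02), Dis3 (1.01) and Mapkapk2 (0.90) higher. In ΔK14, 3 of 50 (6%) were called, beside 14.4% of 15027 genes, 2 higher (7.13% of genes) and 1 lower (7.27%), all over 2-fold (14.3%). They were Zc3h12c (2.32 ± 0.56), Mapkapk2 (1.32 ± 0.28) and Btg2 (−1.94 ± 0.47), with edgeR adjusted p-values of 0.040, 0.029 and 0.040. None of the 3 was called without replicate 1, 2 or 3 of the ΔK14 tumors in turn, where 2.75%, 0.709% and 1.51% of genes were called. Without replicate 1 of ΔK14 mock skin 13 members were called, beside 31.6% of genes, and without replicate 2 there were 7, beside 24.2%. In those fits the spread came from the tumors alone, and the lone mock library is assumed to vary like them.

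Of the wider pathway list, 19 of 80 tested genes were called in tumors against treated skin in fl/fl (10 higher, 9 lower, 23.8%) and 28 of 79 in ΔK14 (18 higher, 10 lower, 35.4%), beside 25.0% and 36.8% of all genes, so the shares were near those of all genes. In the p38 pathway, the p38-activating kinase Map2k3 rose by 2.24 in fl/fl and by 2.06 in ΔK14 on the log2 scale. The p38 isoform gene Mapk12 fell by 3.03 and by 2.92. In tumors against mock skin in fl/fl, Mapk12 did not pass the low-count filter, which 12 of the 13 genes of its group did. The poly(A)-binding protein gene Pabpc1 rose by 1.36 and by 1.27, and the mRNA-binding protein gene Ybx1 by 1.35 and by 1.09. The ribosome rescue factor Pelo was called in ΔK14 at 1.28. The decapping enzyme gene Nudt16 fell by 4.51 and by 2.43, and the miRNA effector Tnrc6c by 1.24 and by 0.90. Nudt16 did not pass the low-count filter between genotypes in tumors, where 12 of the 13 genes of its group were tested. Its change therefore rests on few reads in tumors.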

How the data were processed

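RNA-seq of sorted epidermal cells (Ovation SoLo libraries, Illumina HiSeq) was deposited as a table of raw counts per gene. The submitters' processing notes name Trimmomatic 0.36, STAR 2.5.3, HTSeq 0.9.1, DESeq2 and mm10, and the authors state edgeR at an FDR under 0.05 for their comparisons. The tables of those comparisons hold fold changes and p-values and were not used.

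Counts were tested with edgeR 4.0.16 in R 4.3.3 (filterByExpr, TMM, glmQLFit and glmQLFTest, two-sided, Benjamini-Hochberg over all genes tested), using only the libraries compared and calling genes at an adjusted p under 0.05 at any fold. Intervals are 95% per gene. DESeq2 1.42.0 and the other settings are alternatives. FPKM used the GENCODE M21 exon union, and 3′ UTRs came from the same annotation. Scripts were tested on simulated data. Libraries held 2808550 to 9617985 counts, and low totals limit genes with few counts.

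The members and lists were chosen with earlier results of these data known. Named are Zfp36 and its paralogs, members called between genotypes, the 5 with the smallest p per genotype comparison, stage calls over 2-fold and otherwise up to 5 per direction by p, and the highest and lowest level per role. Members called beyond these were named after their values were seen. Of the pathway list, genotype calls and the 3 smallest p per direction in tumors against treated skin are named. Replicate numbers did not pair the libraries: in none of 6 comparisons of 3 against 3 were all correlations of deviations over 0.1 (range −0.54 to 0.43). The comparisons with ΔK14 mock skin have 2 pairs, too few for that rule, with correlations of 0.79 and 0.56 between genotypes, 0.58 and 0.15 for treated against mock skin and 0.09 and 0.13 for tumors against mock skin.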

Additional observations from a re-analysis of the deposited data

How the results depend on the processing

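Counts of members called by edgeR's quasi-likelihood test moved with the setting. Between genotypes in mock skin the count was 0. It was 1 with DESeq2 (0.0188% of genes), with the replicate block (0.829%) and with a term for mock replicate 1 (0.0377%). Leaving out 1 fl/fl library each it stayed 0. In treated skin it was 1 (0 to 1 leaving out 1 library). In tumors it was 1, and 3 with no low-count filter (4.94% of genes), 2 with the exact test (2.82%), 2 with DESeq2 (2.94%) and 0 with the replicate block (0 to 2). Treated against mock skin in fl/fl gave 0 (0 to 9). Tumors against mock skin in fl/fl gave 0 (0 to 9). It gave 3 with no filter (2595 of 33968 genes), 3 with the exact test (13.5% of genes) and 5 with DESeq2 (16.1%). A single fit of all libraries gave 8 (4211 of 18252 genes). Tumors against mock skin in ΔK14 gave 3, and 0 leaving out 1 tumor library each. It gave 5 with no filter (4220 of 31793 genes) and 7 with the single fit (3598 of 18252 genes). The replicate block gave 1 (938 of 15027 genes) and the identical columns as separate libraries 7 (4730 of 14165 genes). Tumors against treated skin gave 13 in fl/fl, 1 with the replicate block (1999 of 15362 genes) and 3 over 2-fold (18.0% of genes), and 1 to 22 leaving out 1 library. In ΔK14 it gave 10, and 3 over 2-fold (26.0% of genes), and 5 to 14 leaving out 1 library. The genotype difference of tumors against treated skin gave 0, and 1 with no filter (2.76% of genes). The cause of these moves was not tested. In no comparison of 3 against 3 was every library closest to its own replicate number.

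Among the named genes, directions reversed only for changes not called in the main fits, where their log2 fold changes were −0.56 to 0.29. Zfp36l1 in fl/fl tumors against mock skin, −0.02, was 5.3e-05 with RLE scaling, 0.00024 with DESeq2, 0.012 with the single fit and −0.23 to 0.21 leaving out 1 library. Zfp36l1 in ΔK14 tumors against treated skin, −0.01, was 0.048 with no filter, 0.079 with the single fit and −0.11 to 0.11 leaving out 1 library. Zfp36 in ΔK14 treated against mock skin, −0.22, was 0.11 with the replicate block and −0.67 to 0.51 leaving out 1 library. Leaving out 1 library, Zfp36l1 and Zfp36l2 ran from −0.18 to 0.62 and −1.24 to 0.13 between genotypes in mock skin, from −0.80 to 0.011 and −1.06 to 0.30 in ΔK14 treated against mock skin, and from −0.77 to 0.048 and −0.69 to 0.66 in ΔK14 tumors against mock skin.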
